A study of Homo sapiens with 10 samples.

Results

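The WNT ligands, their receptors and co-receptors, their secreted antagonists and the nuclear factors that read the signal were followed from human embryonic stem cells (ESCs) to neuroectodermal cells (NECs). The 47 genes were chosen by name from the 31017 genes of the count table. They comprised 19 WNT ligands, 10 Frizzled (FZD) receptors, 2 LRP co-receptors, 2 ROR receptors, 5 secreted Frizzled-related proteins (SFRP1, SFRP2, SFRP4, SFRP5 and FRZB), 4 Dickkopf proteins (DKK), and 5 nuclear or feedback genes (LEF1, TCF7, TCF7L1, TCF7L2 and AXIN2). For promoter capture Hi-C (PCHi-C), which enriches ligation products that contain a promoter, the start of 46 of them lay in a bait, the captured promoter fragment. These baits were 44 of the 18038 in the lists that held the start of a gene of the count table. WNT1 and WNT10B shared a bait, as did WNT3 and WNT9B, and LRP5 had none in the lists.

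Gene expression was measured by RNA-seq and promoter contacts by PCHi-C, with 2 biological replicates of each cell type in each assay. The ESCs were the established line H9 (WA09), grown in Pluripro media and matrix, and the NECs were derived from that line and collected on day 7 of differentiation. All samples therefore came from 1 cell line. The labels put the ESC RNA libraries in a lane of their own and the NEC RNA libraries in another, so lane and cell type cannot be told apart.

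WNT proteins are lipid-modified ligands that bind Frizzled receptors together with LRP5 or LRP6. This stabilises β-catenin, which enters the nucleus and activates genes through the TCF/LEF factors, while other WNTs signal through Frizzled and ROR receptors to cell polarity without β-catenin. SFRPs bind WNTs outside the cell and DKKs occupy the LRP co-receptors, and in the early neural tube different WNTs mark the dorsal midline, the midbrain-hindbrain boundary and the edges of the forebrain.

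Markers of the labelled cell types were present. The 10 pluripotency genes summed to 6410 and 6682 CPM (counts of a gene scaled to library sizes adjusted by TMM, edgeR's normalization) in ESCs and to 1074 and 1598 CPM in NECs, and 9 of them were called lower in NECs. The 10 neuroectoderm genes summed to 1018 and 1037 CPM in ESCs and to 2266 and 2431 CPM in NECs, with 7 called higher. No marker of any list was at 3 counts or fewer in both NEC libraries. Neural crest markers summed to 149 and 137 CPM in ESCs and to 272 and 131 CPM in NECs, with 6 called higher and 1 lower, and NEC replicate 1 was the higher for 9 of the 10. Mesendoderm markers summed to 40.7 and 109 CPM in ESCs, with ESC replicate 2 the higher, and to 8.38 and 6.65 CPM in NECs, with 7 called lower. Neuron markers summed to 321 and 338 CPM in ESCs and to 380 and 335 CPM in NECs, with 5 called higher, and NEC replicate 1 was again the higher for 9 of the 10.

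Expression of the WNT genes moved mainly upwards. Of the 47 genes, 18 (38.3%) were called higher in NECs, where 11.4% of all 17564 genes tested were called higher. Only FZD5 and SFRP5 (4.26%) were called lower, where 9.68% of all tested genes were. A call required an adjusted p under 0.05 in edgeR's quasi-likelihood test, with Benjamini-Hochberg adjustment over all tested genes, and an absolute log2 fold change above 1.5. In the filter on low counts 41 of the 47 passed, 21 of these were not called, and 6 were not tested. By the adjusted p alone, 26 were higher and 6 lower, where 31.5% and 29.7% of all tested genes were. The median log2 fold change of the 41 was 1.36, and that of all tested genes was 0.01. The samples are bulk RNA, in which fewer cells of a type and less RNA per cell cannot be told apart.

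**Figure D1:**
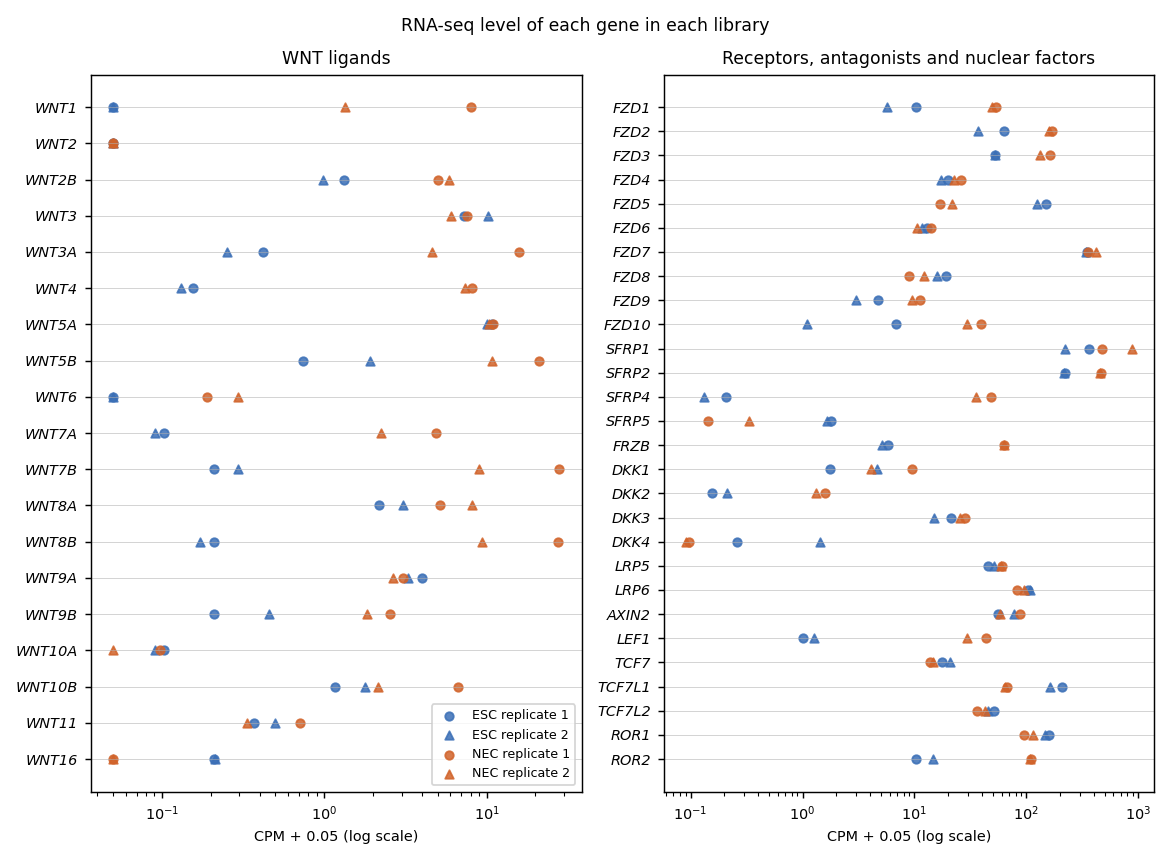
Expression of each of the 47 genes in each RNA-seq library, as CPM plus 0.05 on a log axis, with ESC replicates in blue and NEC replicates in orange (circles for replicate 1 and triangles for replicate 2). WNT1, WNT4, WNT7A, WNT7B, WNT8B, SFRP4 and LEF1 have their ESC and NEC points far apart, whereas those of WNT5A, FZD6 and AXIN2 overlap.

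Among the 19 ligands, 10 rose, none fell, 4 were tested and not called, and 5 were not tested. The steepest differences were in ligands that were nearly silent in ESCs. WNT8B, a ligand of the forebrain margin, stood at 0.159 and 0.121 CPM in ESCs and 27.4 and 9.36 CPM in NECs. With 3 reads in each ESC library, the ratio of its NEC to its ESC level was 129 (95% counting interval 59.0 to 352), and the change passed the test (adjusted p = 0.000517). WNT7B, a ligand of the developing forebrain, was at 0.159 and 0.243 CPM in ESCs and 27.98 and 8.998 CPM in NECs (log2 fold change 6.45, SE 0.76, adjusted p = 0.000685). For its close relative WNT7A the levels were 0.0530 and 0.0405 CPM in ESCs and 4.82 and 2.19 CPM in NECs, with 1 read in each ESC library, a ratio of 74.3 (95% counting interval 20.2 to 619) and adjusted p = 0.000662. In these 3 ligands the groups did not overlap, and NEC replicate 1 was more than 2-fold above NEC replicate 2.

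WNT1 and WNT3A, ligands of the dorsal neural tube, and WNT4 followed the same direction. No read of WNT1 was counted in either ESC library, and NECs had 171 and 32 reads, or 8.002 and 1.30 CPM. The mean NEC level was 33.2-fold the mean level of 3 reads per ESC library, a ratio that rests mostly on NEC replicate 1. The change passed the test (adjusted p = 0.00805). WNT3A stood at 0.371 and 0.202 CPM in ESCs and 15.8 and 4.58 CPM in NECs (log2 fold change 5.17, SE 0.77, adjusted p = 0.00167). WNT4 was at 0.106 and 0.0809 CPM in ESCs and 8.096 and 7.34 CPM in NECs, with 2 reads in each ESC library, a ratio of 83.8 (95% counting interval 32.4 to 309) and adjusted p = 5.21e-05. The NEC replicates of WNT4 lay close together, unlike those of WNT1 and WNT3A.

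The other 4 called ligands had smaller changes, and of these WNT9B was also nearly silent in ESCs, with 3 and 10 reads. WNT5B, a ligand of the branch without β-catenin, had 0.689 and 1.86 CPM in ESCs and 21.01 and 10.7 CPM in NECs (log2 fold change 3.58, SE 0.49, adjusted p = 0.00123). Its locus overlaps FBXL14 on the other strand, and counting ignored strand, so reads of the overlap cannot be assigned. WNT2B was at 1.27 and 0.930 CPM in ESCs and 5.01 and 5.84 CPM in NECs (log2 fold change 2.31, SE 0.28, adjusted p = 0.000794), and WNT9B at 0.159 and 0.405 CPM in ESCs and 2.48 and 1.78 CPM in NECs (log2 fold change 2.83, SE 0.47, adjusted p = 0.00250). WNT10B, at 1.11 and 1.74 CPM in ESCs and 6.598 and 2.11 CPM in NECs, was called by a narrow margin (log2 fold change 1.58, SE 0.57, adjusted p = 0.0486). Its change was 0.55 and no longer passed without NEC replicate 1 (adjusted p = 0.284), and it also lost the call without either ESC replicate (adjusted p = 0.119 and 0.0548).

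The 4 tested ligands that were not called were all expressed in ESCs. WNT5A, the main ligand of ROR receptors, stood at 10.8 and 10.1 CPM in ESCs and 10.9 and 10.3 CPM in NECs (log2 fold change 0.02, SE 0.15, adjusted p = 0.910), and an antisense gene overlaps it. WNT3 was at 7.26 and 10.2 CPM in ESCs and 7.53 and 5.96 CPM in NECs (log2 fold change -0.38, SE 0.24, adjusted p = 0.205), with overlapping groups. WNT8A was at 2.12 and 2.99 CPM in ESCs and 5.15 and 8.07 CPM in NECs, with the groups apart and a change short of the fold threshold (log2 fold change 1.36, SE 0.31, adjusted p = 0.00952). It was called without ESC replicate 2 (1.63) and without NEC replicate 1 (1.65). WNT9A lay between 2.59 and 3.97 CPM in all 4 libraries. WNT2 had no reads, WNT6 had 0 and 0 reads in ESCs and 3 and 6 reads in NECs, WNT10A at most 1 read in a library, WNT11 6 and 11 reads in ESCs and 14 and 7 reads in NECs, and WNT16 3 and 4 reads in ESCs and 0 and 0 reads in NECs. These 5 were too low to test.

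The make-up of the ligands differed between the cell types. Levels per kb of exon allow a rough comparison of different genes. By this measure the 19 ligands summed to 6.09 and 7.31 CPM per kb in ESCs and to 44.6 and 21.8 CPM per kb in NECs. In ESCs the 3 ligands with the highest levels were WNT5A, WNT3 and WNT8A in both libraries, in different orders. In both NEC libraries WNT8B came first, with 28.7% and 19.99% of the sum. WNT7B and WNT3A followed in NEC replicate 1, and WNT8A and WNT5B in replicate 2.

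The called ligands also split the NEC replicates. WNT1 was 6.17-fold, WNT3A 3.45-fold, WNT10B 3.13-fold, WNT7B 3.11-fold, WNT8B 2.93-fold and WNT7A 2.20-fold higher in NEC replicate 1 than in replicate 2. None of the 18 called members was more than 2-fold higher in replicate 2. Of all tested genes, 2.51% were more than 2-fold higher in replicate 1 and 2.72% in replicate 2. The dorsal and neural crest marker PAX3 moved with them, with 1416 and 441 reads, as did TFAP2B with 339 and 36 and SOX10 with 393 and 17. Of the neuron markers, STMN2 had 574 and 229 reads and ELAVL4 186 and 83. Of the other neural crest markers, FOXD3 had 186 and 9 reads, TFAP2A 117 and 17, ETS1 609 and 120, MSX1 494 and 145 and TWIST1 54 and 18. Some markers of these lists differed little. NGFR stood at 78.4 and 78.9 CPM, SNAI2 at 24.5 and 19.7, SYT1 at 40.4 and 34.5 and TUBB3, the most abundant neuron marker, at 214 and 224. In both lists NEC replicate 1 was the higher for 9 of the 10 markers, with NGFR and TUBB3 the exceptions. The pluripotency sum was lower in NEC replicate 1. What part these differences had in the ligand levels was not tested.

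Receptors were expressed in both cell types, and their composition changed. Of the 10 Frizzled genes, 3 rose (FZD1, FZD2 and FZD10), 1 fell (FZD5) and 6 were not called. FZD7, the most abundant Frizzled per kb in all 4 libraries, stood at 76.02 and 74.3 CPM per kb in ESCs and 76.7 and 91.97 CPM per kb in NECs and was not called (log2 fold change 0.17, SE 0.12, adjusted p = 0.251). It made up 56.8% and 63.3% of the summed Frizzled level per kb in ESCs and 45.2% and 52.5% in NECs. With these exon lengths FZD5 stood second in both ESC libraries, with 16.0% and 15.2% of the sum. FZD2 was second in both NEC libraries, with 26.6% and 23.9%. The lengths came from another annotation than the counts. That of FZD2, 3779 bp, exceeds its whole counted gene (chr17:42634827-42636907), and those of FZD1, FZD7 and FZD8 also exceed theirs. Those of FZD5 and FZD9 do so only slightly. Their levels per kb are therefore too low, the shares are approximate, and the order of FZD5 and FZD2 in ESCs is not settled.

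FZD5, a Frizzled receptor known from eye and forebrain development, was at 151 and 125 CPM in ESCs and 16.8 and 21.8 CPM in NECs (log2 fold change -2.83, SE 0.16, adjusted p = 5.03e-05). It was the only Frizzled called lower, and its groups lay far apart. FZD1 was at 10.3 and 5.62 CPM in ESCs and 53.6 and 48.96 CPM in NECs (log2 fold change 2.71, SE 0.26, adjusted p = 0.000298), and FZD10 at 6.78 and 1.05 CPM in ESCs and 39.3 and 29.7 CPM in NECs (log2 fold change 3.20, SE 0.64, adjusted p = 0.00546). The ESC libraries of FZD10 lay far apart, with 128 and 26 reads. FZD2 stood at 62.5 and 37.3 CPM in ESCs and 171 and 158 CPM in NECs (log2 fold change 1.73, SE 0.23, adjusted p = 0.00101), and without ESC replicate 2 its change of 1.39 was under the fold threshold.

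FZD3, a receptor of axon guidance and planar polarity, was at 51.9 and 52.9 CPM in ESCs and 162 and 133 CPM in NECs, and its change of 1.49 came just short of the threshold (adjusted p = 0.000151). With scaling by library size alone it was called, at 1.55. FZD9 at 4.72 and 2.95 CPM in ESCs and 11.1 and 9.404 CPM in NECs was likewise short (log2 fold change 1.43, SE 0.27, adjusted p = 0.00400). Without NEC replicate 2 both were called, FZD3 at 1.62 and FZD9 at 1.54, and FZD9 was also called without ESC replicate 1, at 1.77. FZD4, which overlaps PRSS23, had 19.97 and 17.2 CPM in ESCs and 25.8 and 22.7 CPM in NECs (log2 fold change 0.39, adjusted p = 0.0456). FZD8 had 18.9 and 15.98 CPM in ESCs and 8.798 and 12.1 CPM in NECs (log2 fold change -0.73, adjusted p = 0.0170), with the groups apart and a change short of the fold threshold. FZD6 stood at 12.8 and 11.7 CPM in ESCs and 14.1 and 10.4 CPM in NECs, and the sign of its change depended on the scaling. Every Frizzled gene had at least 26 reads in each library, and only FZD1, FZD2, FZD5 and FZD10 passed both thresholds.

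The co-receptors LRP5 and LRP6, which carry the β-catenin signal with Frizzled, were not called. LRP5 stood at 45.1 and 51.3 CPM in ESCs and 61.1 and 58.9 CPM in NECs (log2 fold change 0.31) and LRP6, which overlaps BCL2L14, at 104 and 108 CPM in ESCs and 82.9 and 94.4 CPM in NECs (log2 fold change -0.26). The ROR kinases, receptors for WNT5A, differed from each other. ROR2 rose, with 10.2 and 14.5 CPM in ESCs and 109.6 and 109 CPM in NECs (log2 fold change 3.13, SE 0.17, adjusted p = 4.19e-05). ROR1 was at 159.6 and 146 CPM in ESCs and 95.3 and 114 CPM in NECs (log2 fold change -0.54, adjusted p = 0.00645). Per kb, ROR1 lay above ROR2 in both ESC libraries, at 23.8 and 21.7 against 1.74 and 2.46 CPM per kb. In NECs ROR2 was at 18.6 and 18.5 CPM per kb and ROR1 at 14.2 and 17.0 CPM per kb.

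SFRP2 and SFRP1, which bind WNTs outside the cell, led the secreted Frizzled-related proteins in every library. Per kb, SFRP2 was at 110.3 and 108 CPM per kb in ESCs and 233 and 226 CPM per kb in NECs, above FZD7 in each library. SFRP1 was at 76.7 and 47.2 CPM per kb in ESCs and 99.95 and 186 CPM per kb in NECs. With these exon lengths SFRP1 lay below FZD7 in ESC replicate 2 and close to it in ESC replicate 1, where FZD7 was at 76.02. The level of FZD7 per kb is too low, as said above, so SFRP1 was further below it than these values show. SFRP2 made up 58.0% and 68.3% of the summed SFRP level per kb in ESCs and 62.9% and 50.7% in NECs, and SFRP1 40.3% and 29.9% in ESCs and 27.0% and 41.7% in NECs. SFRP2 was at 220.2 and 215 CPM in ESCs and 465 and 452 CPM in NECs (log2 fold change 1.07, SE 0.09, adjusted p = 0.000195) and SFRP1 at 363 and 223 CPM in ESCs and 473 and 881 CPM in NECs (log2 fold change 1.21, SE 0.33, adjusted p = 0.0190). Both lay above the ESC range in both NEC libraries and both were short of the fold threshold. SFRP1 was called without ESC replicate 1 (1.58) and without NEC replicate 1 (1.59), and stood at 0.69 without NEC replicate 2.

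SFRP4 was nearly silent in ESCs, with 3 and 2 reads, and reached 1029 and 878 reads in NECs, or 48.2 and 35.6 CPM. The ratio was 361 (95% counting interval 154 to 1114) and the adjusted p was 1.50e-05. SFRP4 overlaps EPDR1 on the other strand, and their shared reads cannot be separated in counts that ignore strand. FRZB, also an SFRP, was at 5.77 and 5.06 CPM in ESCs and 62.6 and 63.1 CPM in NECs, with little spread in either group (log2 fold change 3.54, SE 0.12, adjusted p = 1.37e-05). SFRP5 was the exception in its family and fell (1.75 and 1.62 CPM in ESCs and 0.0936 and 0.284 CPM in NECs, log2 fold change -3.08, SE 0.48, adjusted p = 0.00202), from a low level.

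Of the 4 Dickkopf genes, DKK2 was called. It rose from 2 and 4 reads in ESCs to 33 and 31 reads in NECs (log2 fold change 3.30, SE 0.45, adjusted p = 0.00114). DKK1, an inhibitor of the LRP co-receptors, was at 1.695 and 4.61 CPM in ESCs and 9.41 and 4.01 CPM in NECs, with overlapping groups (log2 fold change 1.06, SE 0.55, adjusted p = 0.137). It was called without ESC replicate 2 (1.97) and without NEC replicate 2 (1.54), and stood at 0.33 without NEC replicate 1. DKK3, a divergent member of the family, was at 21.4 and 15.01 CPM in ESCs and 28.5 and 25.7 CPM in NECs (log2 fold change 0.58, SE 0.18, adjusted p = 0.0304). DKK4 had 4 and 34 reads in ESCs and 1 and 1 reads in NECs and was not tested. Its reads, like the mesendoderm marker sum, were higher in ESC replicate 2, and the part of such cells in its level was not tested.

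Among the nuclear factors, LEF1 alone was called. LEF1, a β-catenin partner that activates its targets, rose from 0.954 and 1.21 CPM in ESCs to 43.5 and 29.7 CPM in NECs (log2 fold change 5.05, SE 0.27, adjusted p = 4.26e-05). TCF7L1, which mainly represses them in ESCs, stood at 208 and 162 CPM in ESCs and 67.5 and 63.8 CPM in NECs and was just inside the fold threshold, at -1.496 (adjusted p = 0.000245). With DESeq2's size factors it was called lower, at -1.52, as it was with the test of DESeq2, the tool of the study. Its change was -1.67 without ESC replicate 2 and -1.53 without NEC replicate 1. TCF7 at 17.6 and 20.6 CPM in ESCs and 13.6 and 14.6 CPM in NECs and TCF7L2 at 51.8 and 45.02 CPM in ESCs and 36.2 and 42.4 CPM in NECs had log2 fold changes of -0.44 and -0.30. AXIN2, a feedback inhibitor and widely used readout of β-catenin signalling, was at 55.5 and 77.02 CPM in ESCs and 87.98 and 58.6 CPM in NECs with overlapping groups (log2 fold change 0.14, SE 0.23, adjusted p = 0.609). Per kb, TCF7L1 was the highest of the 4 factors in every library, at 47.0 and 36.6 in ESCs and 15.2 and 14.4 CPM per kb in NECs. LEF1 moved from last in ESCs, at 0.178 and 0.226, to 8.12 and 5.54 CPM per kb in NECs, where TCF7L2 was at 5.38 and 6.29. LEF1, TCF7L1, TCF7L2, ROR1, FZD6, SFRP1, DKK2, WNT2 and WNT11 each overlap another gene of the table, and reads of such overlaps cannot be assigned.

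**Figure D2:**
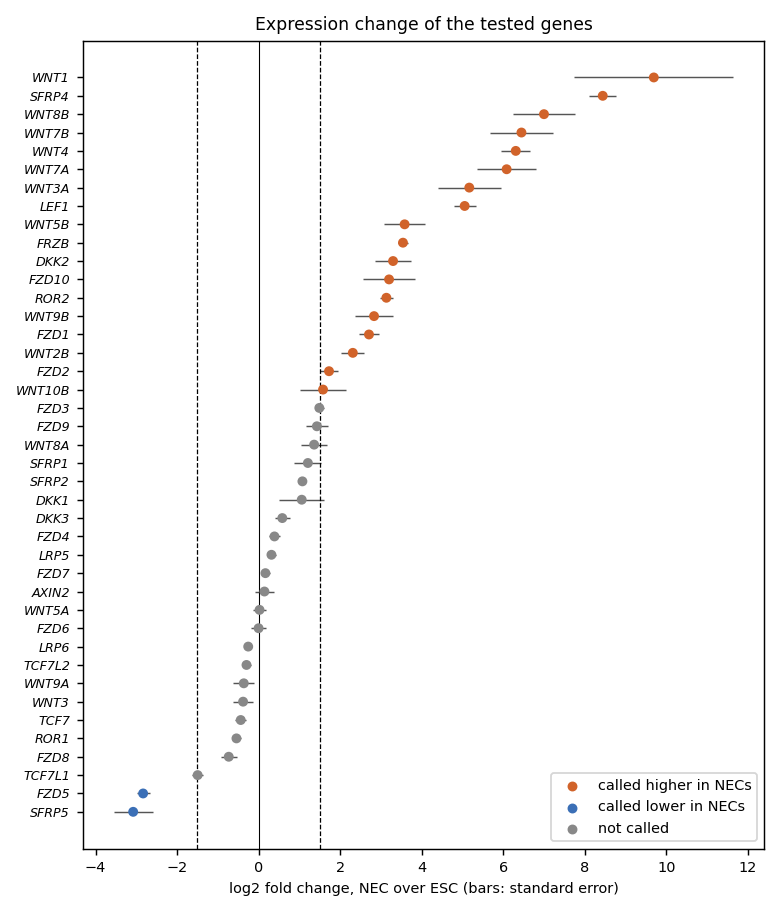
Log2 fold change of NECs over ESCs from edgeR for the 41 tested genes, sorted, with bars for the standard error and dashed lines at the fold threshold of 1.5. The 18 genes called higher (orange) reach from WNT10B to WNT1, FZD5 and SFRP5 are the only genes called lower (blue), and FZD3 and TCF7L1 lie at the threshold.

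Other genes of the pathway were read from a list of 50 chosen by function, of which 49 were tested and SOST was not. In NECs 13 of the 50 were called higher, where 11.4% of all tested genes were, and 1 was called lower, where 9.68% were. WLS, the carrier that WNTs need for secretion, was at 18.1 and 21.2 CPM in ESCs and 616 and 474 CPM in NECs (log2 fold change 4.79, SE 0.18, adjusted p = 1.41e-05). Ligands and receptors that potentiate WNT signalling moved in both directions. RSPO2 stood at 0.424 and 0.243 CPM in ESCs and 15.7 and 5.92 CPM in NECs (log2 fold change 5.03) and LGR5, a receptor of R-spondins, at 0.583 and 2.02 CPM in ESCs and 12.1 and 9.53 CPM in NECs (log2 fold change 2.99). RSPO3 had 1 read in the ESC libraries together against 16.2 and 3.53 CPM in NECs, a ratio of 410 with a wide 95% counting interval of 73.2 to 16232. RSPO1 was the gene that fell, at 50.5 and 92.8 CPM in ESCs and 8.28 and 2.55 CPM in NECs (log2 fold change -3.75, SE 0.52, adjusted p = 0.00124).

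Among the inhibitors of the list, 3 were called higher, NOTUM, SOSTDC1 and NKD1. NOTUM, which removes the lipid of WNTs, was at 0.0530 and 0.364 CPM in ESCs and 3.14 and 0.730 CPM in NECs (log2 fold change 3.05, SE 0.93, adjusted p = 0.0270), and SOSTDC1 at 0.212 and 0.0405 CPM in ESCs and 1.78 and 1.09 CPM in NECs (log2 fold change 3.56, SE 0.64, adjusted p = 0.00356). NKD1, an inhibitor of Dishevelled, stood at 6.83 and 8.66 CPM in ESCs and 52.8 and 21.2 CPM in NECs (log2 fold change 2.25). WIF1 (log2 fold change -1.07, adjusted p = 0.0140), KREMEN2 (-0.58), KREMEN1 (0.92), NKD2 (0.42), ZNRF3 (0.98), RNF43 (1.24), APC (-0.06) and AXIN1 (-0.06) were not called. CTNNBIP1 came just short of the fold threshold, at 43.5 and 37.5 CPM in ESCs and 129 and 99.6 CPM in NECs (log2 fold change 1.499, adjusted p = 0.000363). The receptor TNFRSF19 was at 5.404 and 4.21 CPM in ESCs and 65.2 and 35.95 CPM in NECs (log2 fold change 3.40). In the nucleus PYGO1, a β-catenin co-activator, was at 2.75 and 1.699 CPM in ESCs and 16.8 and 14.3 CPM in NECs (log2 fold change 2.82) and TLE4, a co-repressor of TCF factors, at 27.8 and 25.4 CPM in ESCs and 206 and 204 CPM in NECs (log2 fold change 2.95). Of the planar polarity genes, VANGL2 rose by 1.58, CELSR1 by 1.74 and CELSR2 by 1.74 on the log2 scale, from at least 41.5 CPM in ESCs. PRICKLE1 (log2 fold change -1.49, adjusted p = 0.000119) and VANGL1 (-1.37, adjusted p = 0.00125) had differences in the other direction and were short of the fold threshold, as were CELSR3 (0.76) and PRICKLE2 (0.71). Core intracellular components were not called, with CTNNB1 (β-catenin) at 636 and 595 CPM in ESCs and 609 and 630.1 CPM in NECs and GSK3B at 74.8 and 77.6 CPM in ESCs and 114 and 105 CPM in NECs (log2 fold change 0.52).

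Promoter sequences of the set were searched for the core that TCF/LEF factors recognise, written here as CTTTGA or CTTTGT on either strand. RefSeq windows of the 250 bases before a gene start, on GRCh38.p14, were found for 33 of the 47 genes, and 6 of these (WNT8B, FZD1, ROR2, DKK1, TCF7 and TCF7L2) held a core in at least 1 window. Of 39 windows, 6 (15.4%) held it, against 22.8% of all 35116 windows of that length. The windows of WNT8B, FZD1 and ROR2, which are called genes with a core, and of DKK1, which had 3 cores, are shown 5′ to 3′ on the strand of the gene with the core in capitals (TCAAAG is the core on the other strand). A match of letters is a description and not a binding site.
WNT8B, chr10:100462759-100463008, plus strand: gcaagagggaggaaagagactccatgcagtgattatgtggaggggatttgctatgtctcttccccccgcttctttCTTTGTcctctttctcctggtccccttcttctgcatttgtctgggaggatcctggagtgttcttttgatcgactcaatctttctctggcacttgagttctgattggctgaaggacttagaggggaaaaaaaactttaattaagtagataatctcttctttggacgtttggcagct
FZD1, chr7:91264183-91264432, plus strand: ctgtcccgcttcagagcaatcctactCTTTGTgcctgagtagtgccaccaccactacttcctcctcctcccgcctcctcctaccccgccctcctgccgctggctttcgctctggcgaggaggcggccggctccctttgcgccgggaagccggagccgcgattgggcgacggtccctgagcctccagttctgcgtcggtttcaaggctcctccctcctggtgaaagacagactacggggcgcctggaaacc
ROR2, chr9:91950229-91950478, minus strand: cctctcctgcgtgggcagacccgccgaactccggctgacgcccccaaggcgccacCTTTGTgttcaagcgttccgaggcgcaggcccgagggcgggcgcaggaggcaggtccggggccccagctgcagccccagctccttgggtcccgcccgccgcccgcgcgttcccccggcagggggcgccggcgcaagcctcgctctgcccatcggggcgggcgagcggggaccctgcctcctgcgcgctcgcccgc
DKK1, chr10:52314031-52314280, plus strand: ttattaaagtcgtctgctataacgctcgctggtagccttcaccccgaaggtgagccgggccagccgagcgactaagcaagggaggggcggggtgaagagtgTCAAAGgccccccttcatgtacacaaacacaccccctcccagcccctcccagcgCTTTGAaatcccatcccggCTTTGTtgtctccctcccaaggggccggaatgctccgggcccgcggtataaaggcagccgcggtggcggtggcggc

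Promoter contacts of the set were counted as promoter-interacting regions (PIRs), the fragments that a bait was called to contact on its own chromosome. Fragments are those cut by HindIII, and a call is a pair with a CHiCAGO score of at least 12, where the score is a log-transformed p-value weighted by distance. The lists give scores without reads, so the depth of a call is unknown. The 44 baits had 328 PIRs in the merged ESC list and 419 in the merged NEC list, and 183 were the same fragments in both. These made up 55.8% of the ESC PIRs and 43.7% of the NEC PIRs, against 45.1% and 44.6% over all baits with a gene start. Replicate by replicate the ESC lists gave 248 and 210 PIRs and the NEC lists 288 and 316. As a whole, these lists held 95283 and 86429 calls for ESCs and 100305 and 81168 calls for NECs, so the order over the baits of the set was not that of the lists. The PIRs lay at a median distance of 203 kb from the bait in the merged ESC list and 193 kb in the merged NEC list.

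Of the 44 baits, 14 (31.8%) had more PIRs in both NEC replicates than in either ESC replicate, where 13.5% of all baits with a gene start did. In 5 (11.4%) both NEC replicates were lower, where 12.6% of all baits were. The other 25 overlapped. These shares are not adjusted for PIR number. In the merged lists the baits of the set had a median of 5 PIRs in ESCs and 6.5 in NECs, against 3 and 3 over all baits with a gene start. With 2 replicates against 2, no permutation test can go below p = 0.333, and none was made. The 14 were the baits of WNT3 with WNT9B, WNT5A, WNT7A, WNT11, WNT16, FZD1, FZD3, FZD7, FZD10, SFRP1, SFRP2, SFRP4, FRZB and ROR2. Some of these rest on few PIRs, with 0 and 0 in ESCs against 2 and 1 in NECs for SFRP4. WNT16 had 0 and 1 against 3 and 3. SFRP2 had 5 and 7 against 8 and 10, but 3 in each merged list. The 5 with fewer were the baits of WNT1 with WNT10B, WNT2 (2 and 4 against 0 and 0), WNT4, WNT6 and LRP6. At a score of at least 15 the numbers were 8 and 0, but the shares over all baits at that score were not computed. PIRs at the 10 Frizzled baits went from 131 to 176 in the merged lists, and those at the 17 WNT baits from 99 to 112. The Frizzled gain lay mainly at FZD7 (18 to 44), FZD3 (3 to 25) and FZD1 (6 to 15). FZD5 went the other way, from 59 to 42, as did FZD8, from 20 to 19, and the remaining Frizzled baits changed by few PIRs.

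**Figure D3:**
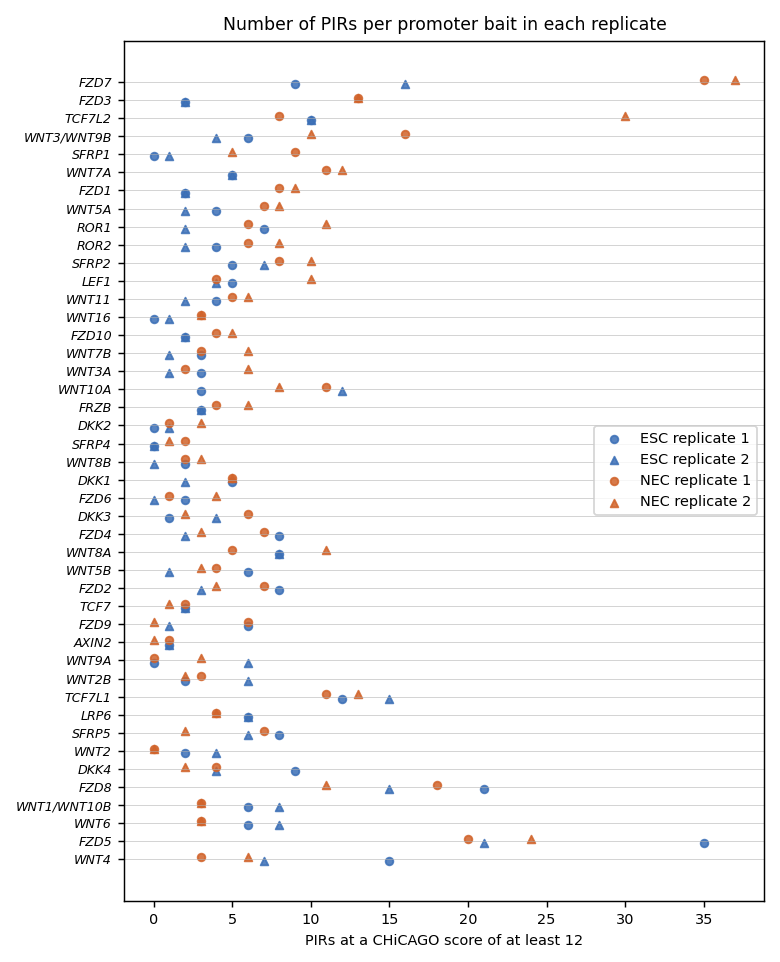
Number of PIRs at each of the 44 promoter baits in each PCHi-C replicate list (blue for ESCs, orange for NECs, circles for replicate 1 and triangles for replicate 2), sorted by the summed difference. FZD7 stands apart with 9 and 16 ESC PIRs against 35 and 37 NEC PIRs, and at the other end FZD5 and WNT4 have replicate values that differ widely within ESCs.

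FZD7 had the largest difference of merged PIR number, 18 in ESCs and 44 in NECs. The replicates gave 9 and 16 for ESCs and 35 and 37 for NECs, so the groups did not overlap. Its bait (chr2:202892754-202902693, GRCh37) shared 14 PIRs between the merged lists. In NECs 26 lay upstream, many of them in CDK15, and 18 downstream, some in KIAA2012. Its 11 replicated NEC-only PIRs, called in both NEC replicates and the merged NEC list but in no ESC list, were 11 of the 33 of the set. The PIR of highest score, inside an intron of CDK15 and 192 kb upstream, was called in all lists, with 40.1 in the merged ESC list and 36.0 in the merged NEC list. The strongest FZD7 contact was thus present in both cell types, and FZD7 expression was not called.

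For WNT7A the merged numbers were 8 for ESCs and 18 for NECs, and the replicates had 5 and 5 against 11 and 12. Every one lay downstream of the gene. A fragment outside protein-coding genes at 224 kb scored 26.9 in the merged ESC list and 48.9 in the merged NEC list, the highest score of the set in any list. Its replicate scores were 18.3 and 16.8 in ESCs and 25.4 and 29.6 in NECs, and its neighbours on both sides were also called in all lists. One further PIR of WNT7A, at 198 kb, was replicated in NECs only, with a merged score of 21.2.

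FZD5 had the most PIRs of the set in ESCs, 59, and 42 in NECs, and its replicates overlapped, with 35 and 21 against 20 and 24. In ESCs 57 of the 59 lay upstream of the gene, and in NECs 41 of 42, in a dense block partly inside PLEKHM3. Its 6 PIRs called in all lists were more than at any other bait, and no PIR of FZD5 was replicated in one cell type only. The highest score was at 288 kb upstream, outside protein-coding genes, with 30.9 in ESCs and 28.95 in NECs.

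The strongest PIRs of WNT7A, FZD5 and FZD7 are shown by the first 200 bases of the fragment on the plus strand of GRCh37. The capitals are the part of the HindIII site that remains at the start of a fragment.
WNT7A PIR, chr3:13698892-13699091: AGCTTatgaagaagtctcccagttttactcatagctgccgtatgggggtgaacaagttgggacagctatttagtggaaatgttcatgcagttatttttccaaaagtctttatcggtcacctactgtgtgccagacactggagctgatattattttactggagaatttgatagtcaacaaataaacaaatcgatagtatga
FZD5 PIR, chr2:208920585-208920784: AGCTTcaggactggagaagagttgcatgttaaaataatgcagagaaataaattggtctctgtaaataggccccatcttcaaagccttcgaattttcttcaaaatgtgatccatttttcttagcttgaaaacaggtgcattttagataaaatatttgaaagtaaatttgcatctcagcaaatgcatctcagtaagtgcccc
FZD7 PIR, chr2:202703438-202703637: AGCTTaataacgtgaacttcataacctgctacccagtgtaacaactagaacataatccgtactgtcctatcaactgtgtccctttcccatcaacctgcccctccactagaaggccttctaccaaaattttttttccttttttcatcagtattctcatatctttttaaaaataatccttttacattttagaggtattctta

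**Figure D4:**
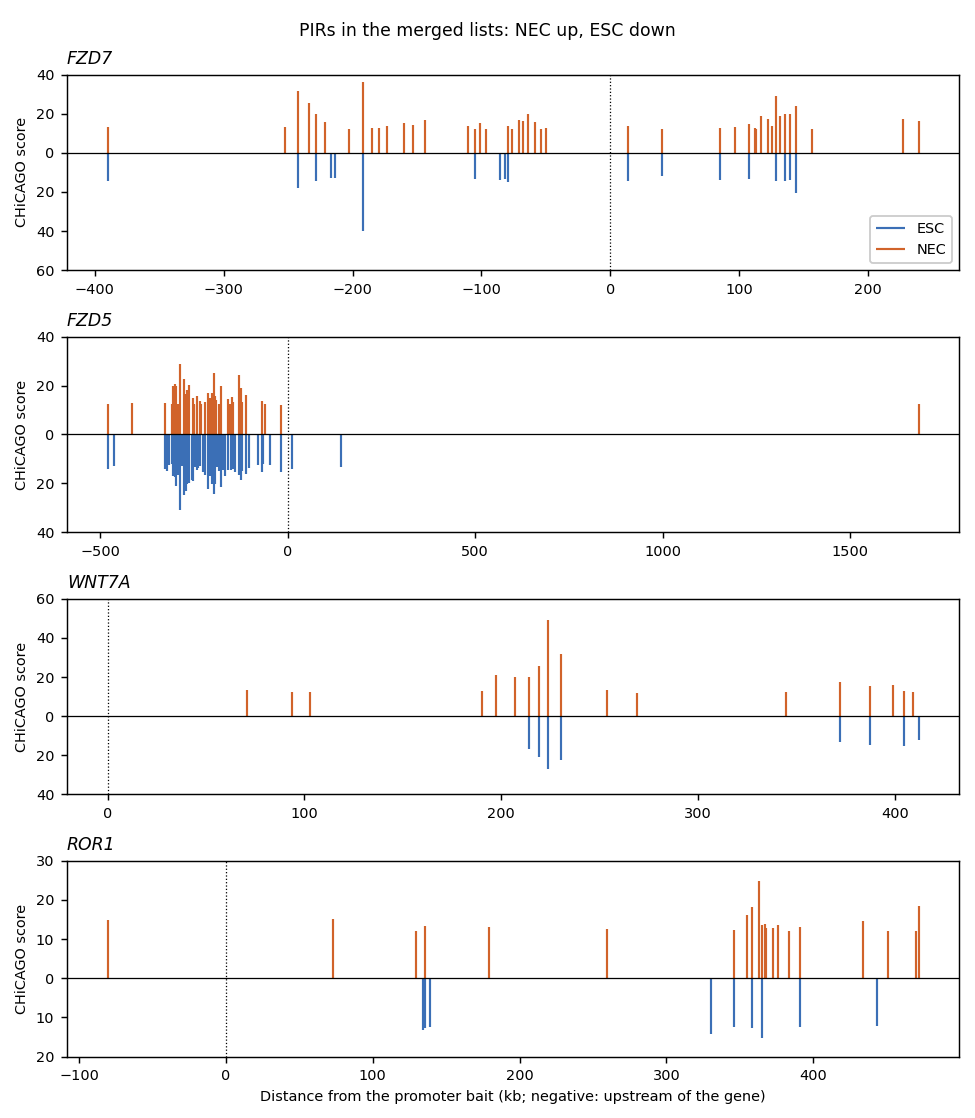
CHiCAGO score of each PIR in the merged lists at 4 baits against its distance from the bait in kb, with NEC scores upwards and ESC scores downwards. FZD7 has 44 PIRs in NECs and 18 in ESCs around 1 shared strong PIR, FZD5 has its PIRs almost all upstream, WNT7A has all of them downstream with the highest score of 48.9, and ROR1 has 21 in NECs and 9 in ESCs.

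Of the other baits with large differences of merged PIR number, those of FZD3 and WNT6 had replicates that did not overlap, and that of ROR1 had replicates that did. FZD3 (replicates 2 and 2 against 13 and 13) had 6 replicated NEC-only PIRs, of which the highest, 99.1 kb downstream and outside protein-coding genes, scored 25.3. At the ROR1 bait 9 PIRs were called in ESCs and 21 in NECs, but 7 and 2 against 6 and 11 in the replicates. Its 2 replicated NEC-only PIRs lay within ROR1 itself, at 355 and 363 kb, and the second had the highest ROR1 score, 24.8. WNT6 went from 18 merged PIRs to 6, its replicates from 6 and 8 to 3 and 3, and none of its PIRs was replicated in one cell type only. The bait of WNT6 also contacted that of its neighbour WNT10A, 26.8 kb away, with 12.4 in the merged ESC list and 13.0 in the merged NEC list. Of the single replicates, ESC replicate 2 alone held this pair.

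Over the whole set 35 PIRs at 19 baits were called in all 4 replicates and both merged lists, 33 at 13 baits were replicated in NECs only, and 6 at 4 baits in ESCs only. Over all 18038 baits with a gene start these classes held 7001, 4988 and 4719 PIRs. At least 1 PIR called in all lists was found at 19.4% of all baits and 43.2% of those of the set, a NEC-only one at 18.5% and 29.5%, and an ESC-only one at 19.1% and 9.09%. These are shares of baits and not of PIRs, and the baits of the set held more PIRs than all baits did. Beside those of FZD7, FZD3, WNT7A and ROR1, NEC-only PIRs lay at 9 baits. FZD8, whose expression was not called, had 2, both over 1 Mb upstream and next to a PIR at 1081 kb that was called in all lists and scored 24.2 in ESCs and 33.2 in NECs. TCF7L2 had 2, in VTI1A and in its own gene, with scores of 18.1 and 19.1. WNT5A had 2, in CACNA2D3 and ERC2, with 15.1 and 14.3, and no PIR of it was in the merged ESC list, although the ESC replicates had 4 and 2. The WNT3 and WNT9B bait had 2, in introns of NSF and of an unnamed gene, with 16.3 and 14.3. FZD1 had 1 in CDK14 (19.3), WNT5B 1 in ERC1 (18.8), WNT4 1 in ZBTB40 (14.6), WNT11 1 in EMSY (13.8) and LEF1 1 outside protein-coding genes (13.7).

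ESC-only PIRs lay at 4 baits. WNT4 had 2, at 236 and 480 kb upstream, with scores of 16.0 and 15.2, beside its strongest PIR, at 267 kb, which scored 19.5 in both merged lists. TCF7L1 had 2, at the start of ELMOD3 and RETSAT and in GGCX, with 14.5 and 13.7, and its highest score in NECs, 23.2, lay within its own gene. WNT2 had 1 at 849 kb (15.3) and the WNT3 and WNT9B bait 1 in KANSL1 (14.97). At ROR2, ROR1 and TCF7L1 most PIRs lay inside the gene itself. All 12 ESC and all 14 NEC PIRs of ROR2 lay within ROR2, 8 of 9 and 16 of 21 of ROR1 within ROR1, and 7 of 10 and 11 of 12 of TCF7L1 within TCF7L1. WNT8B, WNT9A, SFRP4 and AXIN2 had no PIR in either merged list.

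Expression calls and PIR numbers were set side by side for each gene. Of the 18 genes called higher, 7 had more PIRs in both NEC replicates (WNT7A, WNT9B, FZD1, FZD10, SFRP4, FRZB and ROR2). In 3, WNT1, WNT4 and WNT10B, both NEC replicates had fewer, and WNT1 and WNT10B share their bait. Of all 1681 genes called higher whose start lay in a bait, 19.9% had more and 10.1% fewer, and over all baits the shares were 13.5% and 12.6%. In the other 8 the replicates overlapped, as they did in FZD5 and SFRP5, the genes called lower. Of the genes not called, 6 had more PIRs in both NEC replicates (WNT3, WNT5A, FZD3, FZD7, SFRP1 and SFRP2). FZD1 shows the first pattern, with 2 and 2 ESC PIRs against 8 and 9 NEC PIRs, and WNT4 the opposite one, with 15 and 7 in ESCs and 3 and 6 in NECs. WNT8B and SFRP4, with ratios over 100, had no PIR in the merged lists. RNA libraries and PCHi-C libraries were separate samples, and the baits of WNT1 and WNT10B and of WNT3 and WNT9B count for both of their genes.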

How the data were processed

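PCHi-C and RNA-seq were analysed for 2 biological replicates of ESCs and of NECs. RNA-seq reads were trimmed and mapped to GRCh37 by the authors, who deposited raw counts per Ensembl gene, made without using strand. The submitters' processing notes name TopHat2 2.0.8b and Bowtie 1.0.0. Library totals lay between 19234087 and 25356382. The authors scored pairs of HindIII fragments with CHiCAGO, and the deposited score lists hold pairs scoring at least 12 for each replicate and for the merged replicates.

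Counts were filtered with filterByExpr (minimum count 10), scaled by TMM and tested by the quasi-likelihood method of edgeR 4.0.16 in R 4.3.3 with a prior count of 0.125. DESeq2 1.42.0, the tool of the study, was an alternative. A gene with no read in a cell type is given as a ratio of mean levels against a floor of 3 counts per library. One with reads, but at most 3 in each library, is given by a ratio with an exact 95% interval, which covers counting error only. Gene positions and gene starts came from the count table. Exon lengths, other transcript starts and the exons and introns at PIRs came from a GENCODE annotation on GRCh37. Its exon lengths exceed the counted gene for some genes, such as FZD2, so levels per kb are approximate. PIRs were counted once per bait and compared as identical fragments in Python 3.11.15 (numpy 2.4.6, pandas 2.3.3, scipy 1.17.1, matplotlib 3.10.9).

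The members and lists were chosen with earlier results of these data known. Named with values are every called gene, other members with a mean of at least 10 CPM in a cell type, members at the floor, the 6 baits with the largest difference of merged PIR number, baits with PIRs replicated in one cell type only, and the strongest PIR of a promoter described. WNT3, WNT8A, WNT9A, WNT11, DKK1, FZD9, the uncalled pathway genes CTNNB1 and GSK3B, and other genes outside this rule were added after their values were seen. Replicate numbers are shared between cell types, but replicate 1 minus replicate 2 differences of ESCs and NECs correlated by 0.0485 over genes, so the numbers were not taken as pairs. The conventional Hi-C was not analysed here.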

Additional observations from a re-analysis of the deposited data

How the results depend on the processing

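With 2 replicates per cell type, unknown depth behind PCHi-C scores, and lanes that coincide with cell types, small differences cannot be resolved. The number of members called higher lay between 17 and 26 over all alternatives, the last without a fold threshold. Leaving out each replicate gave 18 to 21 higher and 2 to 3 lower. A replicate block, which uses the shared replicate numbers, gave 17 higher and 2 lower, with WNT10B at 1.39 (adjusted p = 0.0522) the only call lost. WNT10B was also lost with DESeq2's size factors (adjusted p = 0.0509). Members called lower were 4 with a minimum count of 1, which added TCF7L1 and DKK4, and 6 without a fold threshold. Without a fold threshold 26 other pathway genes were higher and 7 lower. Lower were 2 with the size factors of DESeq2, as with its test, and leaving out each replicate gave 1 to 3. At a score of at least 15 there were 82 PIRs in ESCs, 134 in NECs and 45 in common. At that score 8 baits had more and 0 fewer in both NEC replicates, and the shares over all baits were not computed. In place of the merged lists, single replicates gave 210 to 248 PIRs in ESCs, 288 to 316 in NECs and 94 to 119 in common. Baits by any annotated transcript start, distances under 2 Mb, and PIRs within 10 kb taken as shared moved no PIR or bait number by over 1.5 times. The sign changed for WNT5A with DESeq2's size factors (-0.00015), with DESeq2's test (-0.00013) and on leaving out a replicate (-0.035 to 0.054), for FZD6 with library size alone (0.062) and on leaving out a replicate (-0.23 to 0.20), and for AXIN2 on leaving out a replicate (-0.17 to 0.40). These 3 were not called, and the cause was not tested.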
